A study of Apis mellifera with 48 samples.

Results

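Mushroom bodies of 20 worker honey bees (Apis mellifera), 10 from colony 1 and 10 from colony 2, were compared. They were chosen by their labels alone, as every worker of these colonies, out of 48 bees in the series. Each bee was sequenced on its own, and each colony gave 5 active workers taken at 3 pm as they got ready to forage and 5 inactive workers taken at 9 am. Activity was judged by watching and marking bees. Each of the 3 colonies had its own queen, naturally mated and not related to the other queens, and all were kept at the same research apiary. The labels give no genotype, father or age for any bee, and name no treatment. The 4 workers of colony 3 and the 10 drones of colonies 1 and 2 (7 and 3 bees) were used beside these workers where stated, and the 14 drones of colony 3 for 1 gene.

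The mushroom bodies are paired centres of the insect brain that combine odour and visual input and take part in learning and memory. In the honey bee they change with age and with foraging. A naturally mated queen stores sperm of several drones, so workers of a colony share a mother but often not a father, and they also share food, brood, microbes and a nest. Drones develop from unfertilised eggs and carry genes of the queen only. In this design genotype, hive surroundings and everything else that differs between the colonies cannot be told apart.

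Reads assigned to genes ranged from 6849730 to 27100606 per bee (median 14933231), and 11864 to 12835 genes had at least 1 read. None of 7 library measures passed, for a difference between the colonies, a two-sided exact permutation test within time of day (lowest raw p = 0.642, all adjusted p = 0.991). The labels name 7 pools without saying more of them. Pools 1, 3, 4, 5 and 6 held workers of both colonies, whereas pool 2 (3 bees) and pool 7 (1 bee) held only colony 1. The gene identifiers could not be paired with names, so genes are given by identifier, and the marker genes of the tissue or of neighbouring tissues could not be read.

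The transcriptomes of the colonies overlapped broadly. Within a time of day, the mean distance between bees (1 minus Spearman correlation of log2 CPM, where CPM is a gene's count scaled to library size) was 0.0315 for pairs of different colonies, against 0.0282 for pairs within colony 1 and 0.0320 for pairs within colony 2. Pairs of different colonies were farther apart than pairs of the same colony by 0.00138, which did not pass a two-sided exact permutation test (p = 0.436). The difference in spread within colonies did not pass either (0.00373 more in colony 2, exact permutation p = 0.533), and its sign changed when morning bee 7 or 10 of colony 2 was left out (-5.21e-05 and -0.000543). Of the 20 bees, 13 were on average nearer to their own group than to the other colony at the same time, 8 of them in colony 1 and 5 in colony 2.

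Colony did appear along smaller axes of variation. Among 20 workers, colony accounted for 1.44% of the first principal component, which held 23.9% of the variance, but for 50.9% of the third, which held 11.3%. Scores on the third component were 14.1 ± 17.1 (SD, n = 10) in colony 1 and -14.1 ± 11.7 in colony 2 (two-sided exact permutation p = 0.000504, adjusted over 6 components 0.00302). The fifth component, with 5.88% of the variance, also differed (7.27 ± 17.004 and -7.27 ± 6.87, exact permutation p = 0.00564, adjusted 0.0169). The colonies overlapped on both components. Pool accounted for 27.8% of the third component and 41.2% of the fifth. With 7 pools among 20 bees such a share is sizeable even without any effect of pool, so it cannot be set beside that of colony. The part of pool in the colony difference was not tested.

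**Figure D1:**
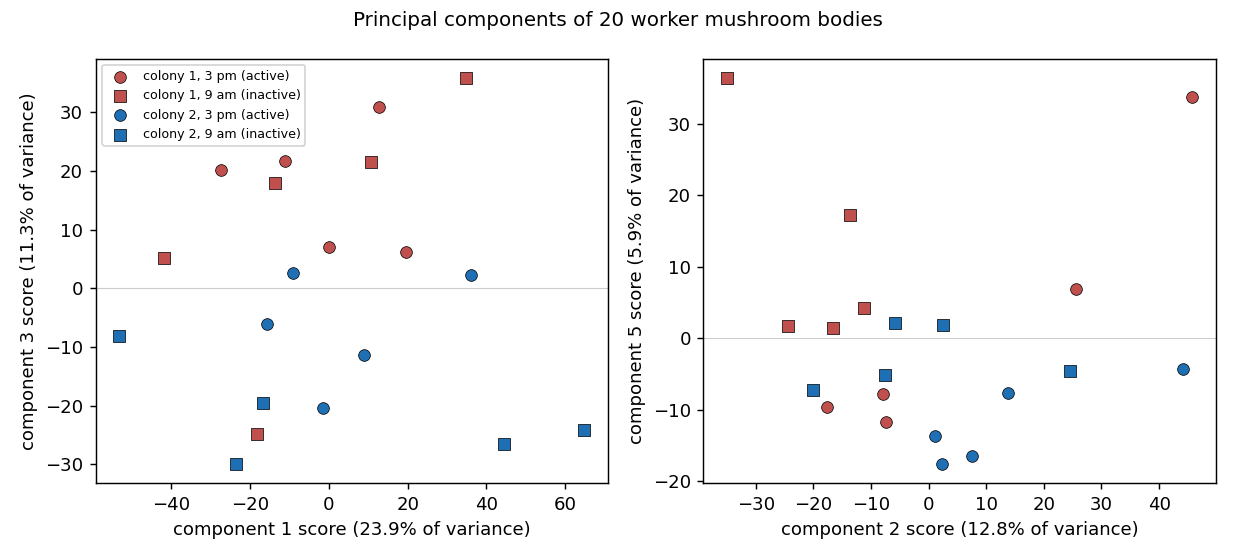
Scores of 20 workers on principal components 1 and 3 (left) and 2 and 5 (right), in units of the component; red marks colony 1, blue colony 2, circles 3 pm and squares 9 am. Colony 1 bees lie higher on component 3 (14.1 against -14.1 on average), with overlap.

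Of 11114 genes tested, 60 differed between the colonies, 0.54% of all (edgeR, adjusted p under 0.05, time of day as a covariate). Of these, 18 (0.162%) were higher in colony 2 and 42 (0.378%) were lower in colony 2, that is, higher in colony 1. At an unadjusted p under 0.05 there were 904 genes (8.13%). The genes called differed by a median of 3.64-fold. Differences of at least 2-fold were found in 10 genes higher and 30 lower in colony 2, and differences of at least 8-fold in 2 (GB54870 and GB52902) and 19. The colony 1 side was larger in number and in size. Its 42 genes had a median of 7.35-fold (1.32 to 299) and the 18 genes higher in colony 2 had a median of 2.34-fold (1.28 to 9.59).

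These counts depended on the pool term and on single bees. With pool as a further covariate 1 gene passed (GB52667), 687 had an unadjusted p under 0.05, and all 60 genes had the same sign. That fit has more terms for the same bees, and pools 2 and 7, with colony 1 bees only, add little to its colony contrast. It therefore has less power, and the part of this in the lower count was not tested. In the 5 pools that held both colonies, 33 of the 60 genes (55.0%) had the same direction in every pool, against 8.56% of genes not called, although the calls were made largely on these same bees. The count was 26, 32 and 33 without active colony 1 bee 5, active colony 2 bee 10 and inactive colony 2 bee 6. Without pools 2 and 7 it was 47 (9 higher and 38 lower in colony 2), of which 35 were among the 60. With DESeq2 it was 175 (74 higher and 101 lower in colony 2) and with limma-voom 31 (14 and 17).

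**Figure D2:**
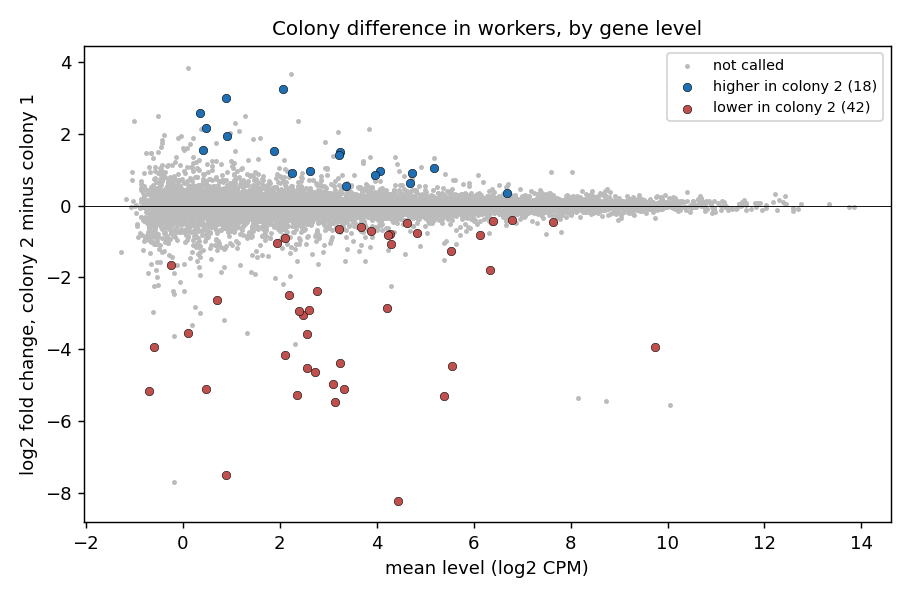
Log2 fold change between colonies (colony 2 minus colony 1) against the mean level of each gene in log2 CPM, for 11114 genes; coloured points passed the test. The 42 genes lower in colony 2 extend to log2 changes below -8, whereas the 18 higher ones stay below 4.

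For comparison, the difference between 3 pm and 9 am was read from the same fit of the same bees. All 3 pm workers were active and all 9 am workers inactive, so time of day and activity cannot be told apart in it. Between 3 pm and 9 am 113 genes differed (1.02%), 54 higher and 59 lower at 3 pm, with a median of 1.54-fold. GB52025 fell at 3 pm by 0.95 in log2 (SE 0.14; adjusted p = 0.00290 with edgeR) and GB41471 fell by 1.05 (SE 0.15, adjusted p = 0.00290). GB48199 rose by 0.57 (SE 0.08, edgeR adjusted p = 0.00290) and GB51506 rose by 0.60 (SE 0.09, adjusted p = 0.00420). The colony differences of these 4 genes did not pass (log2 change between -0.14 and 0.16). None of the genes called for time reached an 8-fold difference, as 21 of the genes called for colony did. The 2 contrasts share all bees, and the difference between their counts was not tested. The time count ranged from 17 (without active colony 1 bee 3) to 295 (without inactive colony 2 bee 10) when single bees were left out and was 12 with pool as a covariate.

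Genes lower in colony 2 are described first. GB41857 was read in 10 colony 1 bees at 1.89 to 29.1 CPM (median 9.18) and in colony 2 bees at 0 to 4.96 CPM (median 1.73). At each time of day every colony 2 bee lay below every colony 1 bee. The log2 difference was -2.37 ± 0.37 (SE, edgeR adjusted p = 0.00536), and it was -2.58 at 3 pm and -2.18 at 9 am. With the pool term it was -2.29 (edgeR adjusted p = 0.0540), and the direction was the same in 5 of 5 pools.

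GB46013 differed by less but was steadier. Its level was 16.9 to 36.1 CPM in colony 1 (median 22.2) and 7.93 to 19.2 CPM in colony 2 (median 13.2). The 9 am bees of the colonies did not overlap, while at 3 pm 1 colony 1 bee (18.8 CPM) lay below the highest colony 2 bee (19.2 CPM). The log2 difference was -0.83 ± 0.13 (SE, edgeR adjusted p = 0.00536). It had the same direction in 5 of 5 pools, with adjusted p = 0.0540 with the pool term and 0.238 in a fit of all 48 bees.

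The other genes of this group described here were singled out after their values were seen. GB52667 had the lowest p-value. In colony 1, 9 of 10 bees had reads, up to 6.37 CPM (median 3.99), whereas 8 of 10 colony 2 bees had none and the others stood at 0.0415 and 0.0444 CPM. The reads summed to 563 in colony 1 and 2 in colony 2, a depth-scaled ratio of 306 (exact 95% interval 84.2 to 2529, counting error only). The fitted log2 difference was -7.50 ± 0.78 (SE, edgeR adjusted p = 2.45e-05). It was the only gene that passed with the pool term, and its adjusted p was 0.0287 or lower under every alternative tried. Among workers of colony 3 it was at 0 in 1 bee and at up to 2.35 CPM in the other 3. Drones did not repeat the worker pattern. GB52667 was at 0 in 3 of 7 colony 1 drones and at most at 2.78 CPM in the rest. Of the 3 colony 2 drones 2 were at 0 and 1 was at 10.4 CPM.

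GB49219 had the largest fold and an on-or-off pattern among bees of colony 1. In 5 of them (active bees 1 and 5, inactive bees 1, 2 and 3) it stood at 78.3 to 97.1 CPM, and in the other 5 at 0 to 0.204 CPM. All colony 2 bees were at or below 0.886 CPM, and all 4 colony 3 workers at or below 0.571 CPM. The high bees of colony 1 thus differed from their nestmates as much as from the other colony. A similar split was found among the 14 drones of colony 3, of which 8 stood at 134 to 202 CPM and 6 at 0 to 0.376 CPM. The reads summed to 8019 against 21 (ratio 415, exact 95% interval 271 to 670, counting error only), nearly all of them from the 5 high bees. The fitted log2 difference was -8.22 ± 1.43 (SE, edgeR adjusted p = 0.00757), and it did not pass with limma-voom (-5.35, adjusted p = 0.669) or with the pool term (edgeR adjusted p = 0.165). Colony 2 was lower in only 3 of the 5 pools that held both colonies.

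GB43247 was the most abundant of the 60 genes and varied continuously. In colony 1 the afternoon bees stood at 126, 173, 566, 1614 and 4292 CPM and the morning bees at 43.8, 421, 487, 903 and 7527 CPM. In colony 2 the afternoon bees stood at 34.3, 47.6, 112, 253 and 381 CPM and the morning bees at 34.2, 51.7, 52.8, 91.7 and 95.7 CPM. High bees occurred in colony 1 at both times, and 3 bees of colony 1 lay within the range of colony 2. The log2 difference was -3.94 ± 0.82 (SE, edgeR adjusted p = 0.0238). It was -2.37 (adjusted p = 0.0852) without the highest bees, numbered 5 at each time, an alternative chosen after seeing the data. The adjusted p was between 0.0511 and 0.0973 when active bee 5 of colony 1, active bee 10 of colony 2 or inactive bee 6, 7, 8 or 9 of colony 2 was left out, 0.112 with limma-voom and 0.162 with the pool term. Colony 2 was lower in 4 of the 5 pools that held both colonies.

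**Figure D3:**
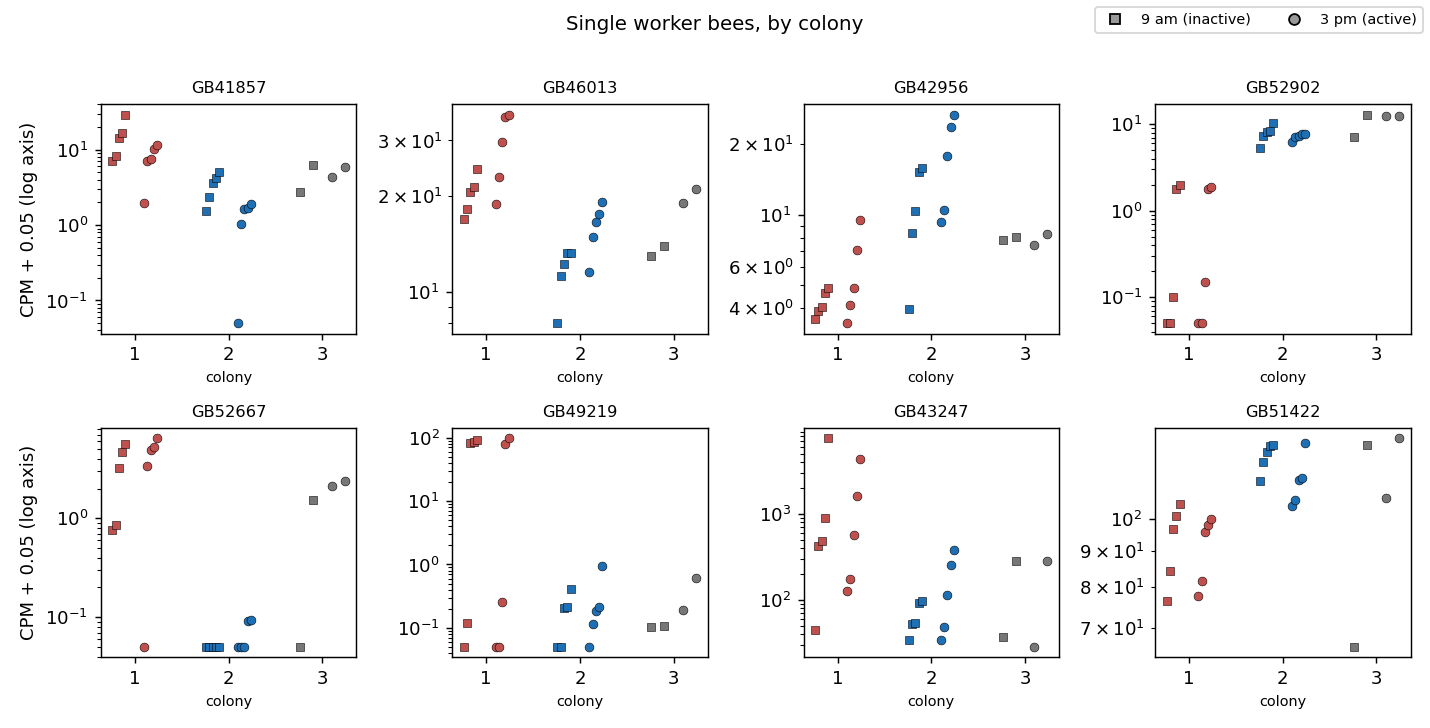
Levels of 8 genes in single workers of colonies 1, 2 and 3 (red, blue, grey), in CPM plus 0.05 on log axes that differ between panels; squares are 9 am and circles 3 pm. GB52902 separates colonies 1 and 2 without overlap, GB49219 splits colony 1 into 5 high and 5 low bees, and GB43247 spreads from 43.8 to 7527 CPM within colony 1.

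Several genes lower in colony 2 moved together across bees. Over the 10 bees of colony 1, 13 of the other 41 genes of this group had a Spearman rho of at least 0.8 with GB43247, as did none of the 18 genes higher in colony 2 and 58 of 11113 tested genes (0.522%). This grouping was made after the values were seen and is a description; the bees share the spread from which GB43247 was picked. The summed level of the 13 genes was 11.2, 13.7 and 19.7 CPM in the 3 colony 1 bees lowest in GB43247 and 118 to 1463 CPM in the other 7. In colony 2 it was 3.50 to 53.3 CPM (median 4.24), with 2 active bees at 24.4 and 53.3 CPM. The same genes had a median rho with GB43247 of 0.53 over colony 2 workers and of -0.20 over the 10 drones, where the medians of all tested genes were 0.01 and 0.03. The drone value takes 7 drones of colony 1 and 3 of colony 2 together. Differences between the colonies enter it, unlike the worker values, which are within 1 colony.

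The co-varying genes ranged from 7.52-fold to 44.3-fold between colonies. GB55207 stood at 0.356 to 477 CPM in colony 1 (median 42.9) and 0 to 13.7 CPM in colony 2 (median 0.514), a log2 difference of -5.30 ± 1.13 (SE, edgeR adjusted p = 0.0285). GB49854 stood at 1.19 to 375 CPM in colony 1 (median 69.8) and 1.03 to 17.6 CPM in colony 2 (median 2.07), a log2 difference of -4.47 ± 0.82 (SE, edgeR adjusted p = 0.0113). In both genes the lowest colony 1 bees lay inside the range of colony 2. GB55207, GB55208 and GB55209 all belonged to the 13 and carry consecutive identifiers, and their places in the genome were not analysed here. Whether RNA of a tissue other than the mushroom body moved with these genes was not tested.

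**Figure D4:**
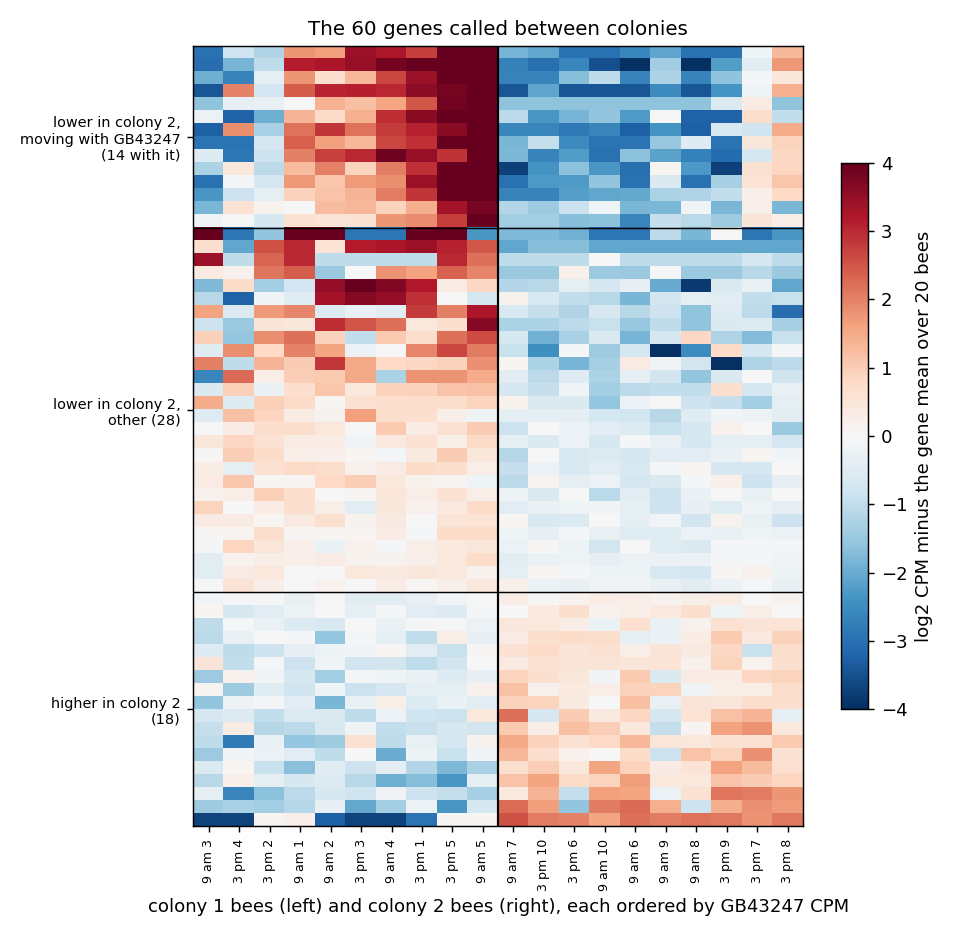
Log2 CPM minus the mean of the gene over 20 workers (colour scale from -4 to 4) for the 60 genes called; columns are bees, ordered within each colony by GB43247. The upper block holds GB43247 and 13 co-varying genes and rises from left to right in colony 1, whereas the lower block holds the 18 genes higher in colony 2.

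The genes lower in colony 2 varied more within colony 1. Of the 42 genes lower in colony 2, 36 varied more among colony 1 bees, with a median SD of 1.48 on the log2 scale in colony 1 against 0.62 in colony 2. The 18 genes higher in colony 2 did not mirror this: 8 varied more in colony 2, and their median SD was 0.45 in colony 2 and 0.56 in colony 1. Over all tested genes the medians were 0.34 in colony 1 and 0.36 in colony 2, and 43.3% varied more in colony 1. Even so, 12 of the 42 differed by less than 2-fold, and in those the median SDs were 0.31 and 0.28. The log2 values include a small added count, which narrows the spread where reads are few, and the 42 were chosen for lower levels in colony 2. The 42 also include GB43247 and the 13 genes that moved with it, so they are not separate observations. Without the 2 colony 1 bees numbered 5 the count of genes called was 32, 16 in each direction, 28 of them among the 60.

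Genes higher in colony 2 were fewer and smaller in fold. For 13 of the 18, at least 8 of the 10 colony 2 bees exceeded every colony 1 bee. Of the 42 genes lower in colony 2, 16 had at least 8 colony 1 bees above every colony 2 bee. Both sets were chosen on these same bees, which bears on these counts, and the share over all tested genes was not computed. GB42956 stood at 3.397 to 9.45 CPM in colony 1 (median 4.33) and 3.92 to 26.7 CPM in colony 2 (median 12.8). Of the colony 2 bees 3 lay within the range of colony 1 (3.92 and 8.29 CPM at 9 am, 9.30 CPM at 3 pm) and the other 7 lay above it. The log2 difference was 1.496 ± 0.249 (SE, edgeR adjusted p = 0.00595), and it did not pass with the pool term (1.38, adjusted p = 0.172) or in a fit of all 48 bees (1.49, adjusted p = 0.263). Colony 2 was higher in 4 of the 5 pools that held both colonies.

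GB52902 was close to absent in part of colony 1 and present throughout colony 2. It was at 0 in 4 colony 1 bees, at 0.0514 and 0.0979 CPM in another 2 and at 1.72 to 1.94 CPM in the other 4. The colony 2 bees stood at 5.28 to 10.3 CPM (median 7.48) and did not overlap with colony 1. Both levels of colony 1 occurred at both times of day. The log2 difference was 3.26 ± 0.61 (SE, edgeR adjusted p = 0.0125), 3.14 at 3 pm and 3.39 at 9 am, in the same direction in 5 of 5 pools and with an adjusted p of 0.198 with the pool term. Workers of colony 3 stood at 7.08 to 12.9 CPM.

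Levels of 4 genes, or 0.036% of those tested, did not overlap between the 10 and 10 bees, and in each colony 2 was above colony 1. Beside GB52902 these were GB51803 (0.304 to 1.49 CPM in colony 1, 1.78 to 4.58 in colony 2), GB51173 (0.0761 to 1.09 and 1.31 to 3.29 CPM) and GB44076 (5.71 to 8.65 and 8.67 to 15.0 CPM). GB51803 and GB51173 were called, with log2 differences of 1.93 ± 0.29 and 2.16 ± 0.36 (SE, edgeR adjusted p = 0.00536 and 0.00595). GB44076 did not pass (0.56 ± 0.13, edgeR adjusted p = 0.0570). No gene had every colony 1 bee above every colony 2 bee.

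The smallest difference called was that of GB51422, picked for that reason. It stood at 76.5 to 105 CPM in colony 1 and at 104 to 128 CPM in colony 2, with an overlap of about 1 CPM. Its log2 difference was 0.36 ± 0.07 (SE, edgeR adjusted p = 0.0185). It did not pass with the pool term (0.31, adjusted p = 0.237) or without pools 2 and 7 (0.31, adjusted p = 0.137).

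Within each time of day 5 bees stood against 5. From the fit of all 20 bees with edgeR 0 genes were called at 3 pm and 0 at 9 am. At an unadjusted p under 0.05 there were 590 genes (5.31% of those tested) at 3 pm and 710 (6.39%) at 9 am. DESeq2 called 33 and 61. A fit of the 3 pm bees alone called 2 genes, GB41433 (0.91 ± 0.13, SE, edgeR adjusted p = 0.0467) and GB43728 (-2.20 ± 0.30, adjusted p = 0.0467), and a fit of the 9 am bees alone called 0 (577 at an unadjusted p under 0.05). Leaving out single bees gave up to 4 genes at 3 pm (without colony 1 bee 4) and up to 10 at 9 am (without colony 1 bee 3). The 3 pm and 9 am bees are different animals, so the signs at 1 time can be set beside those at the other. The lists of 590 and 710 genes both came from the fit of all 20 bees, however. That fit gives each gene 1 estimate of spread for both times, which bears on the number of genes the lists share. Of the 590 genes chosen at 3 pm, 77.5% had the same sign at 9 am, against 53.8% of the rest. Of the 710 chosen at 9 am, 71.5% had the same sign at 3 pm, against 54.0% of the rest. The lists shared 158 genes of the same sign. These were 26.8% of the 3 pm list, where the 9 am list held 6.39% of all genes tested. They were 22.3% of the 9 am list, where the 3 pm list held 5.31% of all. The 6.39% and 5.31% count genes of either sign, and the 158 only those of the same sign.

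A dependence of the colony difference on time of day was not detected for any gene. With edgeR 0 genes passed the interaction test (324 at an unadjusted p under 0.05, 2.92% of those tested), with limma-voom 0 and with DESeq2 1. A p above the threshold does not show that the differences were equal at both times. The 60 genes called had the same sign at 3 pm and 9 am, which their selection on the pooled bees largely fixes.

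The 4 workers of colony 3 are given as a description. For 32 of the 42 genes lower in colony 2, the colony 3 mean was nearer to colony 2 and for 10 nearer to colony 1. Among the 19 with at least 8-fold differences it was nearer to colony 2 for 18. For the 18 genes higher in colony 2, 8 were nearer to colony 1 and 10 nearer to colony 2. Of the genes not called, 55.1% were nearer to colony 1. The genes were chosen on bees of colonies 1 and 2, which bears on these counts.

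The drones of the same colonies share no library with the workers. In drones 3 of 10856 genes were called (0.0276%), all higher in colony 2, namely GB41923, GB51387 and GB48831. At an unadjusted p under 0.05 there were 583 (5.37%). The drone count was 0 without the single 9 am drone of colony 2 and 10 without 3 pm drone 3 of colony 2, and DESeq2 called 82. Of the 60 worker genes 50 were tested in drones and 31 (62.0%) had the worker sign there, against 52.5% of genes not called in workers. None passed in drones after adjustment.

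At an unadjusted p under 0.05, 4 of the 50 had the worker sign in drones and 5 the opposite sign. Of the 10648 genes not called in workers and tested in drones, 336 had the worker sign and 223 the opposite sign at that threshold. The 4 of the worker sign were GB43247, GB46013, GB48136 and GB48658, all lower in colony 2 in both sexes. GB46013 stood at 28.1 to 55.6 CPM in colony 1 drones and 19.996 to 27.0 CPM in colony 2 drones, without overlap. Its log2 difference in drones was -0.78, close to the -0.83 of workers. GB43247 stood at 50.2 to 109 CPM in colony 1 drones and 54.4 to 58.1 CPM in colony 2 drones, with none of the high values seen in colony 1 workers.

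The genes of opposite sign were GB41857, GB43324, GB55207, GB55208 and GB55209, lower in colony 2 workers and higher in colony 2 drones. GB55207, GB55208 and GB55209 were among the 13 genes that moved with GB43247 in colony 1 workers, so they are not separate observations. GB55208 stood at 0 to 1.24 CPM in colony 1 drones and at 4.62 to 5.88 CPM in colony 2 drones (log2 difference 2.66, edgeR unadjusted p = 0.00127). The 13 genes that moved with GB43247 summed to 4.55 to 13.4 CPM in colony 1 drones and 16.1 to 19.4 CPM in colony 2 drones. In workers the order of the colonies was the reverse, with medians of 165 and 4.24 CPM.

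A test of the difference between the sexes, added after seeing the data, called 16 genes (0.144%; 1 higher and 15 lower as worker minus drone difference). GB41857, GB43324 and GB55208 were the members of the 60 among them (-3.53, -7.64 and -7.80 on the log2 scale, edgeR adjusted p = 0.0163, 0.0333 and 0.0333). With DESeq2 71 genes were called. With edgeR the count was 0 without the 9 am drone of colony 2, which leaves 2 drones of that colony, both from 3 pm. DESeq2 was not run on these bees. Whether that library or the smaller number of bees accounts for the loss was not tested.

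**Figure D5:**
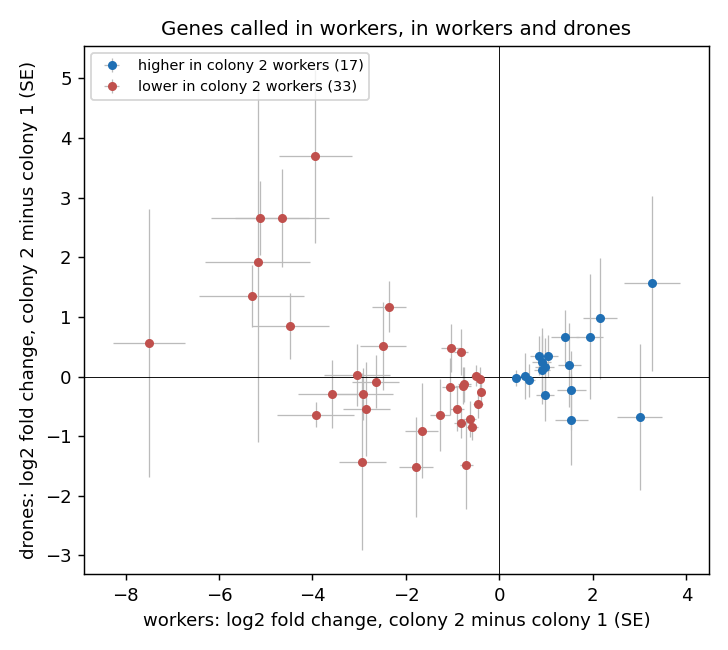
Log2 fold change (colony 2 minus colony 1) in workers against that in drones for the 50 genes called in workers and tested in drones; bars are standard errors. Of the 50, 31 lie in the quadrants of equal sign, and several genes with large negative differences in workers have positive ones in drones.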

How the data were processed

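Poly(A) RNA of single dissected mushroom bodies was made into directional libraries, per the labels' protocols. The deposited values are raw counts of reads per gene, 1 file a bee, made by the authors; their labels name assembly Amel 4.5 and gene set OGS 3.2. The submitters' processing notes name HTSeq 0.5.4, TopHat2 2.0.10, edgeR 3.4.2, Trimmomatic 0.30, CASAVA 1.8.2 and SAMtools. The 5 summary rows were left out; reads in no feature were 25.3% to 31.2% of their totals. Of 15314 identifiers 0 matched the name table (Amel_HAv3.1), so gene lists and tissue markers could not be used.

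Counts were fitted with edgeR 4.0.16 (TMM, filter on low counts, quasi-likelihood test, Benjamini-Hochberg over all genes, threshold 0.05), with DESeq2 1.42.0 and limma 3.58.1 as alternatives, in R 4.3.3; permutations were exact (63504 relabellings, Python 3.11.15, SciPy 1.17.1). The scripts were tested on simulated data. CPM are scaled over 48 libraries. Genes named by rule are the 2 with the lowest p in each direction among called genes whose log2 CPM averaged 1 or more. The bees, lists and rules were chosen with earlier results of these data known. Bees are separate animals, yet nestmates have queen and nest in common and each colony is 1 unit: p-values cover the spread between bees, not between colonies. Replicate numbers run within colonies; same-numbered bees deviated together unevenly (correlations -0.14 to 0.47), so numbers do not pair bees. No 2 libraries were identical.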

Additional observations from a re-analysis of the deposited data

Results flagged for a closer look

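Single bees stood apart in 2 of the 72 groups of 4 to 10 bees examined for the named genes, and chance alone flags about 1 in 20 groups. GB43247 was at 7527 CPM in inactive bee 5 of colony 1, where the other 4 bees of that group ranged from 43.8 to 903 CPM. GB49219 was at 0.886 CPM in active bee 9 of colony 2, where the other 4 ranged from 0 to 0.166 CPM. That level came from 6 reads in the library with the fewest gene reads of the 20 (6849730). The other 4 bees had 0 to 4 reads, so the values are near the floor.

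The colony difference itself differed between workers and drones in 6 of the genes named in the text, by the test of that difference, and GB51387 and GB40791 were named for their low p in that test. It was -3.53 ± 0.66 on the log2 scale (SE, workers minus drones, edgeR adjusted p = 0.0163) for GB41857, which was lower in colony 2 workers (-2.37) and higher in colony 2 drones (1.17). It was -3.69 ± 0.51 (edgeR adjusted p = 0.000657) for GB51387, with -0.44 in workers and 3.26 in drones. It was -3.62 ± 0.57 (edgeR adjusted p = 0.00317) for GB40791, with -0.35 in workers and 3.28 in drones. It was -7.64 ± 1.58 (edgeR adjusted p = 0.0333) for GB43324, with -3.94 in workers and 3.69 in drones. It was -7.80 ± 1.62 (edgeR adjusted p = 0.0333) for GB55208, with -5.12 in workers and 2.66 in drones. It was -1.98 ± 0.35 (edgeR adjusted p = 0.0111) for GB48831, with -0.12 in workers and 1.88 in drones. These values rest on 3 drones of colony 2, and none of the 16 genes called passed without the 9 am drone. The choice of genes leaned on the same drones. GB51387 and GB48831 were also named as genes called in drones, and GB43324 for its opposite sign there. GB55208 was named both on worker values and for its opposite sign in drones. Only GB41857 was named on worker values alone, so the count of 6 is in large part set by this choice. For GB40791 the colony 2 drones stood at 0.321, 8.23 and 10.3 CPM. The lowest of them lay below every colony 1 drone (0.49 to 1.39 CPM).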

How the results depend on the processing

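The number of genes differing between the colonies was 60, and it was 55 to 70 with DESeq2 size factors, without a low-count filter, with a stricter filter, after thinning to equal depth and with all 48 bees (70, of which 39 were among the 60). It was 47 without pools 2 and 7 (35 among the 60), 175 with DESeq2, 31 with limma-voom, 1 with pool as a covariate and 32 without the 2 colony 1 bees numbered 5 (chosen after seeing the data). Leaving out single bees gave 26 to 75. The share lower in colony 2 was 42 of 60, against 101 of 175 with DESeq2, 17 of 31 with limma-voom and 16 of 32 without the bees numbered 5; the cause was not tested. The 8 named genes kept their direction in all 30 alternatives each.

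The count for 3 pm against 9 am was 113, and 363 with DESeq2, 50 without a low-count filter, 234 with all 48 bees, 12 with pool as a covariate and 12 without pools 2 and 7; leaving out single bees gave 17 to 295, more than 1.5 times from 113 for 14 of 20 bees (active bees 2, 3, 4 and 5 of colony 1 and 6, 8, 9 and 10 of colony 2, inactive bees 2 and 3 of colony 1 and 7, 8, 9 and 10 of colony 2). The count at 3 pm was 2 from the bees of that time alone and 33 with DESeq2 (0 to 4 without single bees). At 9 am it was 61 with DESeq2 (0 to 10 without single bees). The drone count of 3 was 82 with DESeq2 and 0 to 10 without single drones: 0 without 9 am drone 6 of colony 2, 1 without 3 pm drone 1 or 9 am drone 1 or 2 of colony 1, 5 without 9 am drone 5 of colony 1 and 10 without 3 pm drone 3 of colony 2. The worker minus drone count of 16 was 71 with DESeq2 and 0 to 22 without single colony 2 drones. The spread difference ranged from -0.000543 to 0.00708 without single bees.

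Replicate numbers run within colonies, so a replicate block was possible only for the interaction with time, which called 0 genes with the block (341 at an unadjusted p under 0.05) and 0 without; DESeq2 called 1. Depth limits genes such as GB52667, where 2 reads stand for colony 2.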
